A study of Mus musculus with 4 samples.

Results

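The RNAs described are 10 long transcripts that are not translated into a known protein: Malat1, Neat1 and Tug1, the 6 hosts of small nucleolar RNAs Gas5, Snhg1, Snhg3, Snhg6, Snhg8 and Snhg12, and the microRNA host Mir17hg. They were chosen by name, with earlier results of these data known. All 10 had a row among the 78028 gene rows of each table. Of the 10, 9 had counts in every library and Snhg3 had none. Levels are given as TPM, transcript abundance scaled for gene length and library size. The libraries came from 4 separately grown cultures labelled hepatocyte-like cells. The starting cells were E14TG2a, a mouse embryonic stem cell line, and they had been differentiated with A-HIC, an advanced cocktail for hepatic induction. All 4 share the line, the treatment and the label, so there is 1 group with n = 4 and no control group, and the time in culture is not given in the sources used here. RNA carrying poly(A) was captured on oligo-T beads, and the libraries do not record the strand.

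Malat1 is a nuclear RNA that collects in speckles, the storage sites of splicing factors, and Neat1 is the scaffold of another nuclear body, the paraspeckle. Both genes also give RNAs whose 3′ end is cut by RNase P and closed by a triple helix in place of a poly(A) tail, and how much of each RNA the poly(A) capture kept was not tested. Host genes of small nucleolar RNAs (snoRNAs) work the other way round: the introns carry the stable product, a guide for chemical modification or cleavage of ribosomal RNA, and the spliced exons are often short-lived and open to nonsense-mediated decay. Box C/D snoRNAs guide methylation of ribose and box H/ACA snoRNAs guide pseudouridylation. Many host genes start with a run of pyrimidines, the terminal oligopyrimidine (TOP) feature they share with messages for ribosomal proteins and elongation factors. Mir17hg is cut by Drosha and Dicer into the 6 microRNAs of the miR-17-92 cluster, known for promoting proliferation and for its high level in embryonic stem cells.

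The products of Mir17hg are shown first, because they define what the host is known for. The main mature microRNAs of the cluster lie between positions 115043684 and 115044496 of the plus strand of chromosome 14 (GRCm38.p6, from RefSeq), inside the annotated exons of Mir17hg. The seed, bases 2 to 8, is in capitals.
miR-17-5p: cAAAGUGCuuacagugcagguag
miR-20a-5p: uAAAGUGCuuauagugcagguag
miR-18a-5p: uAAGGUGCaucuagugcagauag
miR-19a-3p: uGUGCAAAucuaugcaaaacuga
miR-19b-3p: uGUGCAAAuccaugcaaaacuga
miR-92a-3p: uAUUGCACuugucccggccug
The 6 sequences hold 4 seeds. miR-17-5p and miR-20a-5p share AAAGUGC, which 7 of 1738 mature mouse microRNAs in the table carry, and miR-19a-3p and miR-19b-3p share GUGCAAA, which 3 carry.

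The snoRNA hosts are represented by 3 of their small RNAs, 1 for each of Gas5, Snhg6 and Snhg8, taken from the GENCODE M21 transcripts on GRCm38. In the first pair, both of the C/D kind, capitals mark the box C letters TGATGA and the box D letters CTGA, and in the last, of the H/ACA kind, the letters ACA near the 3′ end.
Snord47 (in Gas5, chr1:161038082-161038158, plus strand): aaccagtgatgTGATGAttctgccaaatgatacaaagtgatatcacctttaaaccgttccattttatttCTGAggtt
Snord87 (in Snhg6, chr1:9942463-9942549, minus strand): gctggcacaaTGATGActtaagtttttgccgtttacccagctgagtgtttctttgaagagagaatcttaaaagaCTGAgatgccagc
Snora24 (in Snhg8, chr3:123507937-123508066, minus strand): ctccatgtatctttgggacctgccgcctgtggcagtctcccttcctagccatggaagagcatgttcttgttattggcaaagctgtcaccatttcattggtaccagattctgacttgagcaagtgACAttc
Both C and D letters were found in 15 of the 27 snoRNA transcripts hosted by the RNAs studied, against 20.2% of 1507 snoRNA transcripts in the annotation.

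The starts of the hosts were read because the TOP feature sits there. RefSeq start windows (GRCm38.p6) were at hand for 5 of the 6 hosts, 6 starts in all, and for Malat1 and Tug1. Snhg6 and Neat1 had no entry, and the Mir17hg entry begins inside the microRNA cluster, so it was not read as a promoter. Below are the 50 bases before and the first 30 bases after 4 host starts, and capitals mark the longest run of C and T within 10 bases before and 15 after the start.
Gas5 (chr1:161035116-161035195, plus strand): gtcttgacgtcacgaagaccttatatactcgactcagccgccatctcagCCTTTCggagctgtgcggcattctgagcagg
Snhg8 (chr3:123508307-123508386, minus strand): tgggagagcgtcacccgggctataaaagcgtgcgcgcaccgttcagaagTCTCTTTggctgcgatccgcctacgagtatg
Snhg12 (chr4:132308628-132308707, plus strand): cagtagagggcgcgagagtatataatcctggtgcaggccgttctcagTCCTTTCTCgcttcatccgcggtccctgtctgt
Snhg1 (chr19:8723437-8723516, plus strand): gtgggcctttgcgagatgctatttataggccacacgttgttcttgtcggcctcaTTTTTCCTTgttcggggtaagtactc
These 4 starts had runs of 6, 7, 9 and 9 pyrimidines, and 24.4%, 15.2% and 5.87% of 32851 promoter windows had a run of at least 6, 7 and 9. The letters TATA, read 45 to 16 bases before the start and the same on both strands, were present at all 4 and in 6.72% of all windows. The other start of Gas5 and that of Snhg3 had neither TATA nor a run of 6, and neither had the starts of Malat1 and Tug1. Among the other snoRNA hosts listed for comparison, 7 of 14 starts had such a run and 2 had TATA. Of the 6 starts at hand for listed TOP messages, 3 had such a run and 0 had TATA. A match of letters is a description of these windows only.

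Libraries 1 to 4 held 37.8, 40.2, 29.5 and 40.1 M counts. Even numbers made up 60.0% to 62.6% of counts from 1 to 8, so a fragment may have been counted at both ends. A count of 0 allows up to 3 fragments, or 6 counts in that case, which is 0.149 to 0.203 CPM (counts scaled for library size only). These limits cover counting error only. The labelled cell type was checked against 8 hepatocyte markers, of which 1, Ttr, reached 1 TPM in all 4 libraries. Alb, the main plasma protein of the liver, had 11, 171, 0 and 12 counts, and Tat and Cyp3a11 had 3 counts or fewer everywhere. All 6 markers of pluripotent cells and all 6 of parietal endoderm were expressed, as were 5 of 5 fibroblast markers, so the label hepatocyte-like is kept here as the submitters' name. Summed over the list, pluripotency markers gave 6654, 3432, 5969 and 4412 TPM for libraries 1 to 4 and parietal endoderm markers at 2691, 8796, 3254 and 6719 TPM. Fibroblast markers summed to 1749, 3293, 1520 and 2421 TPM and hepatocyte markers to 6.76, 53.9, 8.01 and 24.4 TPM. In bulk RNA, fewer cells of a type and less RNA per cell cannot be told apart.

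Of the 10 RNAs, 9 reached 1 TPM or more in all 4 libraries, against 30.3% of 48824 annotated rows and 10.3% of 8931 long noncoding rows. Because the RNAs were chosen with earlier results of these data known, this share describes the set and is no test of it. Together they took 0.101%, 0.0794%, 0.0841% and 0.0885% of the counts of libraries 1 to 4. Library 1 gave them the largest share and library 2 the smallest, and the mean was 0.0882% ± 0.00914 (SD, n = 4). Malat1 and Neat1 held 0.0543% ± 0.00917, the 6 snoRNA hosts 0.0179% ± 0.00262, Tug1 0.0134% ± 0.00211 and Mir17hg 0.00256% ± 0.000662 (SD, n = 4). Malat1 alone made up 41.4% ± 4.69 (SD, n = 4) of the counts of the set.

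Malat1, the speckle RNA, had 15848, 13063, 8905 and 16805 counts in libraries 1 to 4. Scaled for length and depth these were 220, 184, 162 and 231 TPM, a mean of 199 ± 31.9 TPM (SD, n = 4). Libraries 1 and 4 were high and nearly equal, at 419 CPM each, and libraries 2 and 3 were lower, at 325 and 302 CPM. Its annotated exon is 6983 bases long in a single block on the minus strand.

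Neat1, the paraspeckle scaffold, had 9144, 5128, 5621 and 5922 counts, or 242, 128, 190 and 148 CPM. Library 1 was 1.89 times as high as library 2, and library 3 lay between libraries 1 and 4. Over its full annotated length of 20771 bases this gave 32.2 ± 8.15 TPM (SD, n = 4). Neat1 is made as a short RNA and a long RNA from the same start, and gene counts do not separate them. With the annotated short isoform of 3004 bases as its length, and other genes at their longest transcript without a retained intron, Neat1 stood at 156 ± 38.9 TPM.

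Tug1, a widely expressed long RNA first found as a taurine-induced transcript of the retina, had 4512, 6649, 3704 and 5091 counts. In CPM it stood at 119, 166, 125 and 127, so library 2 was high and libraries 1, 3 and 4 lay close together. The mean was 52.7 ± 9.98 TPM (SD, n = 4). Tug1 shares 483 exon bases with Morc2a on the opposite strand, and without strand the reads of the pair cannot be told apart there. Morc2a, a chromatin-silencing ATPase, had 5028, 5899, 4187 and 5686 counts.

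Snhg8, host of Snora24, had the most TPM of the 6 snoRNA hosts with the union of exons as length, with 1129, 987, 802 and 1001 counts and 119 ± 7.04 TPM (SD, n = 4). Snhg1, whose introns carry 8 snoRNAs in the annotation, had 3016, 2471, 2091 and 2682 counts and 89.2 ± 6.89 TPM. In CPM both were highest in library 1 and lowest in library 2, and the highest library exceeded the lowest by 1.22 times for Snhg8 and 1.30 times for Snhg1. In TPM library 4 was the lowest for Snhg8, at 113 TPM against 114 TPM in library 2. Snhg6, host of Snord87, had 761, 582, 585 and 683 counts and 59.1 ± 6.98 TPM. Snhg12, host of Snora16a, Snora44, Snora61 and Snord99, had 943, 838, 899 and 968 counts and 39.7 ± 5.60 TPM. Library 2 was again the lowest for both when scaled for depth, while library 3 was the highest for Snhg12.

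Gas5, named for its rise in growth-arrested cells, had 2010, 1030, 1237 and 1479 counts. It stood at 53.2, 25.7, 41.9 and 36.9 CPM, a mean of 39.6 ± 10.3 TPM (SD, n = 4). In CPM library 1 was 2.07 times as high as library 2, the widest ratio among the 9 measured RNAs.

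Mir17hg, the precursor of the microRNAs printed above, had 705, 1138, 990 and 884 counts. It stood at 18.7, 28.3, 33.5 and 22.0 CPM and 27.7 ± 7.35 TPM (SD, n = 4). In CPM its order of libraries, from high to low, was 3, 2, 4 and 1. Malat1, Tug1 and Snhg12 also each had an order that no other measured RNA had. Library 3 was highest for Snhg12 too, and library 1 was lowest for Tug1 too. Library 1 was the highest for 6 of the 9 measured RNAs in CPM and for 4 in TPM. The share of all genes that were highest in library 1 was not counted, so these numbers only describe the set.

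**Figure D1:**
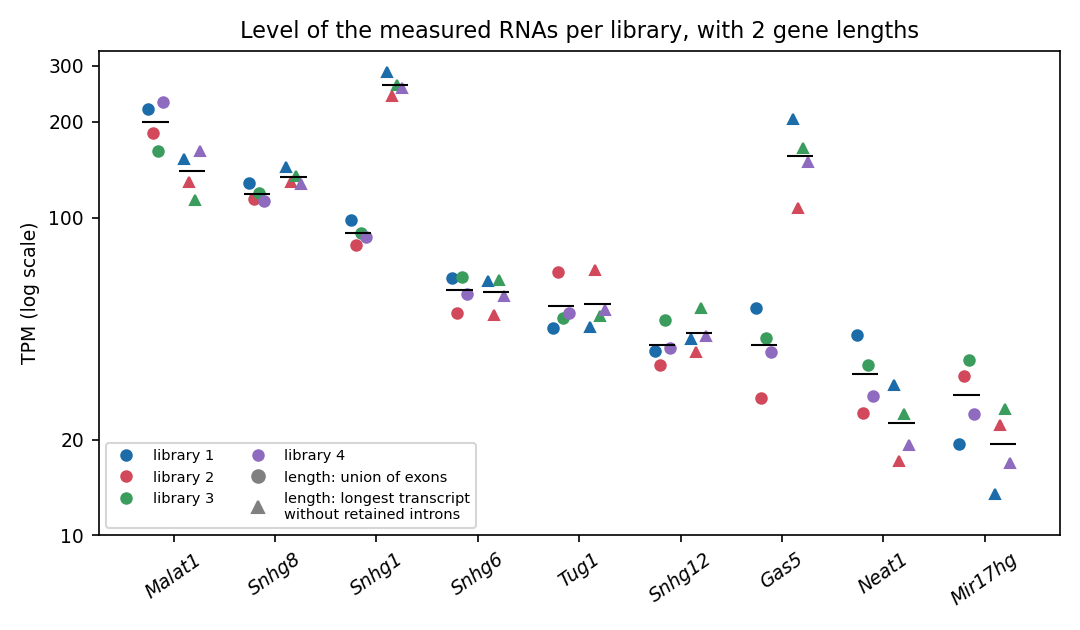
TPM of the 9 measured RNAs in libraries 1 to 4, on a log scale, with circles for the union of exons as gene length and triangles for the longest transcript without a retained intron; black lines are means of 4 libraries. With the union of exons Malat1 is highest at a mean of 199 TPM and Mir17hg lowest at 27.7 TPM. With the other length Snhg1 has the highest mean, at 262 TPM, and Gas5 overlaps Malat1. Neat1 has its full length of 20771 bases in both.

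By mean TPM with the union of exons as length, the order was Malat1, Snhg8, Snhg1, Snhg6, Tug1, Snhg12, Gas5, Neat1 and Mir17hg. Neighbours were called separated where the log2 ratio of their TPM had the same sign in 4 of 4 libraries and a mean over 2 SD from 0, because an exact sign-flip test over 4 libraries cannot reach p = 0.05. By that description 4 of the 8 neighbouring pairs were separated. Malat1 exceeded Snhg8 by 0.74 ± 0.25 on the log2 TPM scale (SD, n = 4), Snhg8 exceeded Snhg1 by 0.41 ± 0.05, Snhg1 exceeded Snhg6 by 0.60 ± 0.10 and Gas5 exceeded Neat1 by 0.29 ± 0.13. Snhg6 and Tug1, Tug1 and Snhg12, Snhg12 and Gas5, and Neat1 and Mir17hg did not differ beyond their spread. The place of Neat1 below Gas5 rests on its full length of 20771 bases. With its short isoform of 3004 bases, and other genes at their longest transcript without a retained intron, Neat1 stood at 156 ± 38.9 TPM. Gas5 then stood at 157 ± 40.1 TPM.

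The order depended on the length assigned to hosts that have retained-intron transcripts. The annotation labels 20 such transcripts for Gas5, 14 for Snhg1 and 1 for Snhg8, and none for the other hosts. Snhg12 has no transcript with that label, yet its exons form 1 block of 2402 bases and overlap all 4 of its snoRNAs. Its alternative length of 1538 bases may therefore still include introns. With the longest transcript without a retained intron as the length of every gene, an alternative chosen after seeing the data, Snhg1 (709 bases against 2969) stood at 262 ± 19.4 TPM and Gas5 (665 against 3760) at 157 ± 40.1 TPM (SD, n = 4). Malat1 then stood at 140 ± 22.4 TPM and Snhg8 at 134 ± 7.52 TPM, and the order became Snhg1, Gas5, Malat1, Snhg8, Snhg6, Tug1, Snhg12, Neat1 and Mir17hg. In that order Snhg1 was separated from Gas5, Snhg8 from Snhg6 and Snhg12 from Neat1, 3 of 8 pairs. Which share of the reads came from spliced exons and which from retained introns is not recorded in gene counts.

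Snhg3, the host of Snora73a and Snora73b, had 0 counts in all 4 libraries. Of its 986 annotated exon bases, 86.3% are shared with other genes, against 1.85% to 20.9% for the other RNAs of the set. The partner that shares most, 705 bases on the opposite strand, is Gm17300, with 121, 124, 110 and 120 counts. The same-strand partner Rcc1, the nucleotide exchange factor of the GTPase Ran, shares 135 bases and had 5249, 4423, 3717 and 4720 counts. Across the table, 74.3% of 261 long noncoding rows (lincRNA, antisense and processed transcript) with 80% or more of their exon bases shared had no count in any library, against 47.6% of 7031 with under 20% shared. Among protein-coding rows these shares were 66.2% of 272 and 11.8% of 18458. The relation was not graded: with 20% to under 80% shared, 27.4% of 1152 long noncoding rows and 7.41% of 1215 protein-coding rows had no count, fewer than with under 20%. How reads that fall in more than 1 gene were treated is not given in the sources used here. Overlaps were read from GENCODE M21 on GRCm38, while the counts used GRCm39 with an annotation that is not named. The overlaps that applied during counting may therefore differ. For Snhg3, an RNA that was not made and reads that were not assigned cannot be told apart. Snhg9, another snoRNA host, also lacked counts (0, 0, 0 and 1) with 7.65% of its exon bases shared.

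**Figure D2:**
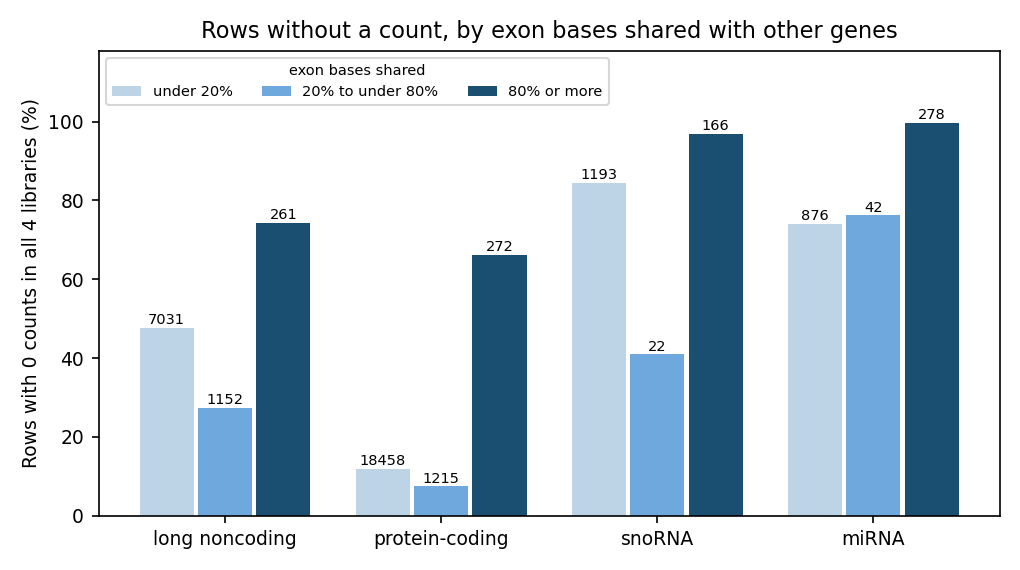
Percent of rows with 0 counts in all 4 libraries (bars), by gene class and by the share of annotated exon bases that overlap another gene; the number above each bar is the number of rows. In every class the rows sharing 80% or more were most often without a count, 74.3% of long noncoding rows and 66.2% of protein-coding rows. Overlaps are those of GENCODE M21, which may differ from the annotation used for counting.

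The small RNAs inside the hosts were not seen as rows of their own. The annotation places 31 snoRNAs and microRNAs within the 7 host genes, 30 of them had a row, and 0 of the 30 had a count in any library. These were Snord47, Snord78, Snord80, Gm22357, Gm22489, Gm23212, Gm25789 and Gm26224 in Gas5, and Snord22, Gm22680, Gm22744, Gm23246, Gm24452, Gm24453, Gm25855 and Gm25894 in Snhg1. The others were Snora73a and Snora73b in Snhg3, Snord87 in Snhg6, Snora24 in Snhg8, the 4 snoRNAs of Snhg12 named above, and Mir17, Mir18, Mir19a, Mir20a, Mir19b-1 and Mir92-1 in Mir17hg. Over the whole table, 14.8% of 1381 snoRNA rows and 20.0% of 1196 microRNA rows had a count. Of the 31 small RNAs, 29 overlap an annotated exon of their host. Among rows with 80% or more of their bases shared, 97.0% of 166 snoRNA rows and 99.6% of 278 microRNA rows had no count, and with under 20% shared these were 84.3% of 1193 and 74.0% of 876. The host levels above are therefore levels of the long RNA, and carry no measure of the snoRNAs or mature microRNAs.

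Each library was then compared with the other 3, since the labels give no groups to compare, with edgeR's quasi-likelihood test and Benjamini-Hochberg adjustment over the 17398 genes that passed the filter on low counts. This takes the variance of the single library to be that of the remaining ones. All but Snhg3 passed the filter, 9 of 10. At an adjusted p under 0.05, edgeR called 0 of the 9 in each of the 4 comparisons, where it called 0.0% of all genes tested. Before adjustment, 2 of the 9 had p under 0.05 for library 1, against 5.32% of all genes, and 2 for library 2, against 7.38%. For libraries 3 and 4 there were 0, against 1.57% and 1.55%. The DESeq2 Wald test also called 0 of the 9 in each library, against 0.0719%, 0.446%, 0.0102% and 0.0102% of the genes it gave an adjusted p in libraries 1 to 4.

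For library 1 the largest difference among the measured RNAs was in Mir17hg, with a log2 fold change of -0.63 ± 0.26 (SE) against the other 3 and an edgeR adjusted p of 0.723. Over the alternatives its adjusted p ran from 0.0802 to 1.00. Neat1 in library 1 had a log2 fold change of 0.59 ± 0.19 with an unadjusted p of 0.0179 and an adjusted p of 0.723 in edgeR. For library 2 the largest was Gas5, at -0.70 ± 0.22 with an edgeR adjusted p of 0.626, and Tug1 stood at 0.49 ± 0.12 with an unadjusted p of 0.00500 and an adjusted p of 0.626. For library 3 the largest was again Mir17hg, at 0.49 ± 0.29, and for library 4 Neat1, at -0.30 ± 0.31, both with an edgeR adjusted p of 1.00.

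These calls depended on which libraries served as the comparison. Without library 3, edgeR called Neat1 and Gas5 in library 1, where 12.4% of all genes tested were called, and without library 4 it called Neat1, Tug1 and Gas5 in library 2, where 14.4% were. Gas5 in library 2 then had a log2 fold change of -0.80 and an adjusted p of 0.00256, and its adjusted p ran from 0.00256 to 0.998 over the alternatives. Without library 1, Neat1 was called in library 3, beside 7.35% of all genes, and without library 2 in library 4, beside 7.8%, with an adjusted p of 0.0165. Without the filter on low counts, edgeR called Neat1 in library 1, beside 0.836% of all genes, and 0 of the 9 RNAs in libraries 2 to 4, beside 1.19%, 0.00255% and 0.0153%. Over rows with 20 counts or more, the squared differences between libraries were set against counting noise, with every count taken as independent. They were 12.0 times that noise for libraries 1 and 3 and 19.7 times for libraries 2 and 4. For the 4 other pairs they were 32.8 to 81.5 times. If fragments were counted at both ends, the noise is larger and these ratios are smaller.

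**Figure D3:**
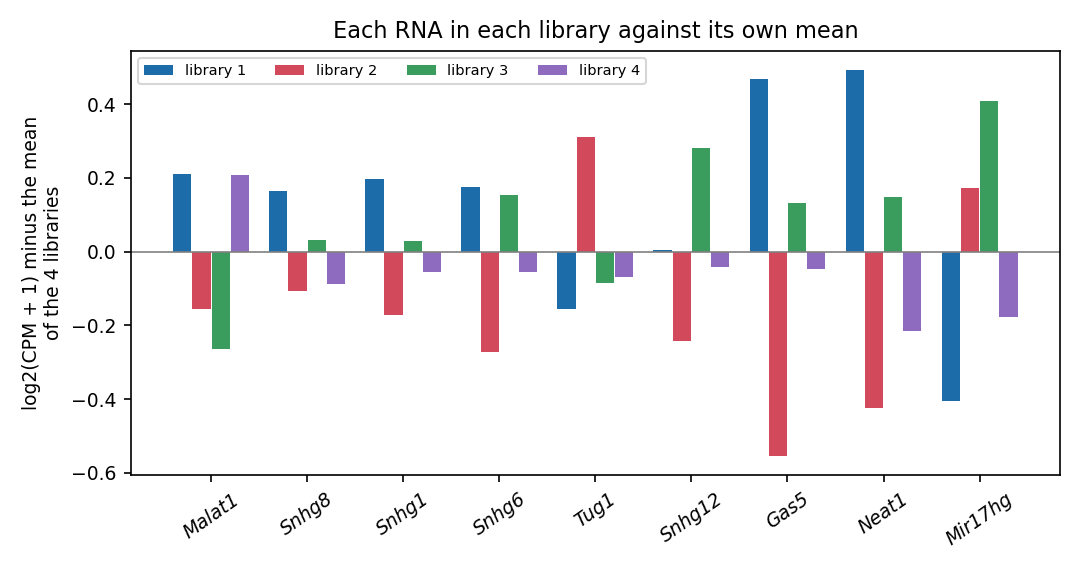
Difference of each RNA's log2(CPM + 1) in libraries 1 to 4 from its own mean over the 4 libraries (bars). Gas5, Neat1, Snhg8, Snhg1, Snhg6 and, by a small margin, Snhg12 lie above their mean in libraries 1 and 3 and below it in libraries 2 and 4, as 29.8% of all genes tested do. With TMM-scaled CPM 3 of these 6 do, Gas5, Neat1 and Snhg6, against 22.6% of all genes. Tug1 is high in library 2, and Mir17hg is highest in library 3 and lowest in library 1.

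The order of libraries 1, 3, 4 and 2, from high to low, was found in CPM for 5 of the 9 measured RNAs, Gas5, Neat1, Snhg1, Snhg8 and Snhg6, against 16.3% of all genes tested. It depended on the scaling: it held for 4 of the 9 with TMM-scaled CPM, against 11.7% of all genes. In TPM it held for 3 of the 9, Gas5, Neat1 and Snhg1, and the share of all genes was not counted. On the log2(CPM + 1) scale Gas5 deviated from its mean by 0.47, -0.55, 0.13 and -0.05 in libraries 1 to 4, and Neat1 by 0.49, -0.42, 0.15 and -0.22. The summed pluripotency markers had the order 1, 3, 4 and 2 and the summed parietal endoderm markers the reverse one, and their part in these differences was not tested. The log2 TPM ratio of Gas5 to Neat1 was 0.28, 0.15, 0.28 and 0.46, so it moved little while each RNA moved about 1 log2 unit. Among the 36 pairs of measured RNAs, the SD of the log2 ratio over libraries had a median of 0.33. It was smallest for Snhg8 and Snhg1, at 0.05, ranked 4 for Gas5 and Neat1, at 0.13, and largest for Gas5 and Mir17hg, at 0.70. These pairs were picked after their values were seen, and 4 libraries are too few for a correlation. Mir17hg deviated by -0.41, 0.17, 0.41 and -0.18.

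The spread of single RNAs was placed among the genes tested. The SD of log2(CPM + 1) over the 4 libraries was 0.427 for Gas5, 0.405 for Neat1 and 0.361 for Mir17hg, at the 92.7th, 91.3rd and 87.7th percentile of the 17398 genes, whose median was 0.176. Malat1 stood at 0.246, the 70.0th percentile. Snhg12, Tug1 and Snhg6 lay close together at 0.216, 0.211 and 0.209, while Snhg1 at 0.155 and Snhg8 at 0.13, the 29.4th percentile, lay below the median. In all, 7 of 9 were above the median, against 50.0% of genes by construction. The SD that counting alone would give, with 2 counts a fragment, was 0.018 to 0.080 for these RNAs. Single libraries decided some of these values: without library 2 the SD of Tug1 was 0.0465, that of Gas5 0.262 and that of Snhg6 0.127. Without library 1 the SD of Snhg1 was 0.101 and that of Snhg8 0.0751, and without library 3 that of Snhg12 was 0.131. edgeR's biological coefficient of variation, which is drawn toward genes of like abundance, placed Gas5, Neat1 and Mir17hg nearer the middle, at the 57.1st, 52.4th and 58.0th percentile.

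**Figure D4:**
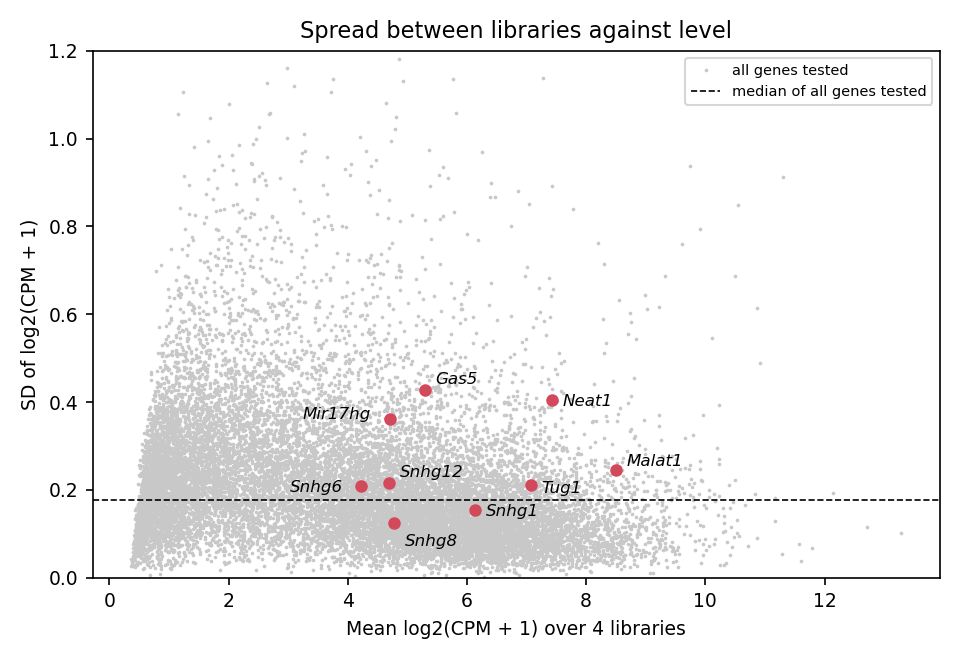
SD of log2(CPM + 1) over the 4 libraries against the mean, for all 17398 genes tested (grey) and the 9 measured RNAs (red); the dashed line is the median SD of 0.176, and 8 genes lie above the top of the axis at 1.2. Gas5, Neat1 and Mir17hg lie in the upper part of the cloud, and Snhg1 and Snhg8 below the line.

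All the protein-coding genes on the lists of related genes reached 1 TPM in every library, against 63.3% of 19945 protein-coding rows. Of 113 related genes on the lists, 104 were tested, and edgeR called 0 of them in each library, with 10, 12, 1 and 1 at an unadjusted p under 0.05 in libraries 1 to 4. Over all genes tested the unadjusted shares were 5.32%, 7.38%, 1.57% and 1.55%. DESeq2 called 1, Thbs1 in library 2, where it called 0.446% of all genes. All 8 paraspeckle proteins reached 1 TPM in every library, from Hnrnpk at 533 ± 48.7 TPM and Nono at 500 ± 25.1 TPM, an RNA-binding partner of Neat1, down to Pspc1 at 40.0 ± 6.06 TPM and Rbm14 at 34.2 ± 7.19 TPM (SD, n = 4). All 7 speckle proteins did so too, led by the splicing factors Srsf1 at 370 ± 29.1 TPM and Srsf2 at 348 ± 26.3 TPM, with Son at 85.1 ± 12.5 TPM and Rnps1 at 68.2 ± 2.46 TPM lowest. The medians of the lists were 197 TPM for paraspeckle and 189 TPM for speckle proteins.

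The messages for the proteins that bind the guide RNAs of the hosts were at high levels, and the proteins themselves were not measured. All 4 core proteins of box C/D particles were expressed, Nop56 at 269 ± 17.8 TPM, the methylase Fbl at 239 ± 22.1 TPM, Snu13 at 202 ± 14.4 TPM and Nop58 at 140 ± 4.81 TPM. So were the 4 of box H/ACA particles, Nhp2 at 519 ± 49.0 TPM, the pseudouridine synthase Dkc1 at 291 ± 37.3 TPM, Nop10 at 202 ± 30.8 TPM and Gar1 at 167 ± 6.22 TPM. The 7 assembly factors ranged from Ruvbl1 at 283 ± 23.1 TPM and Ruvbl2 at 227 ± 23.4 TPM, a pair of AAA+ ATPases, to Znhit3 at 43.5 ± 6.73 TPM and Shq1 at 11.8 ± 1.36 TPM. Nonsense-mediated decay, to which spliced host exons are often open, had 10 of 10 factors expressed, Upf1, its central helicase, at 125 ± 7.12 TPM, Smg6 at 33.1 ± 2.68 TPM and Smg9 at 23.4 ± 3.10 TPM. The TOP messages were far more abundant than the hosts: the 9 listed ran from Eef1a1 at 15268 ± 589 TPM and Eef2 at 4062 ± 88.7 TPM to Rack1 at 942 ± 71.5 TPM and Eef1b2 at 922 ± 68.7 TPM.

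Around Mir17hg, all 10 microRNA processing factors were expressed. Drosha, the nuclear RNase that opens primary microRNAs, was the highest at 170 ± 2.98 TPM, followed by Lin28a, a blocker of let-7 maturation found in pluripotent cells, at 141 ± 41.1 TPM. Dgcr8, Drosha's partner, stood at 30.1 ± 3.61 TPM and Lin28b at 8.25 ± 1.69 TPM. The 5 transcription factors listed as regulators of the cluster were expressed, E2f1 at 63.3 ± 4.50 TPM, Mycn at 48.5 ± 7.13 TPM, Myc at 46.4 ± 8.27 TPM, E2f3 at 30.0 ± 7.29 TPM and E2f2 at 20.1 ± 4.49 TPM. All 6 textbook targets of the cluster were also present, Cdkn1a, an inhibitor of the cell cycle, at 197 ± 45.4 TPM, Thbs1 at 125 ± 45.7 TPM, Bmpr2 at 23.5 ± 6.14 TPM and the death inducer Bcl2l11 at 19.8 ± 2.32 TPM. The mature microRNAs were not measured, so these levels say nothing of targeting.

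Set beside other RNAs of their kinds, the measured hosts and Mir17hg had mean levels above the medians of the lists. Both the RNAs and the lists were chosen with earlier results of these data known, so these comparisons are descriptions only. Of 14 other noncoding snoRNA hosts, 11 were expressed, from Snhg5 at 208 ± 18.9 TPM and Snhg15 at 59.9 ± 5.05 TPM to Snhg20 at 6.27 ± 2.72 TPM and Snhg14 at 5.21 ± 0.919 TPM, while Snhg9 was not detected. Snhg4 and Snhg7 had no annotated length, so the 1 TPM rule could not be applied and they are not among the 11. They stood at 31.7 ± 4.81 and 11.7 ± 3.05 CPM. Of 9 other microRNA hosts, 7 were expressed, Mir22hg at 34.8 ± 3.23 TPM and Mir100hg at 12.0 ± 2.00 TPM being the highest, and Mir9-3hg and Mir99ahg the lowest at 0.445 ± 0.0916 and 0.0255 ± 0.0228 TPM. Mir17hg, at 27.7 TPM, would be second in that list. Of 20 other long noncoding RNAs, 11 were expressed, led by Lncenc1, a naive stem cell transcript, at 325 ± 47.3 TPM and Norad at 163 ± 16.5 TPM. Hotair, Rmst and Pantr1 were not detected. Over all 113 related genes listed, 99 reached 1 TPM in all 4 libraries, and Snhg4 and Snhg7 could not be assessed for want of a length. The medians of the lists were 46.2 TPM for the 10 RNAs and 19.4 TPM for other snoRNA hosts. They were 2.92 TPM for other microRNA hosts and 2.11 TPM for other long noncoding RNAs.

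**Figure D5:**
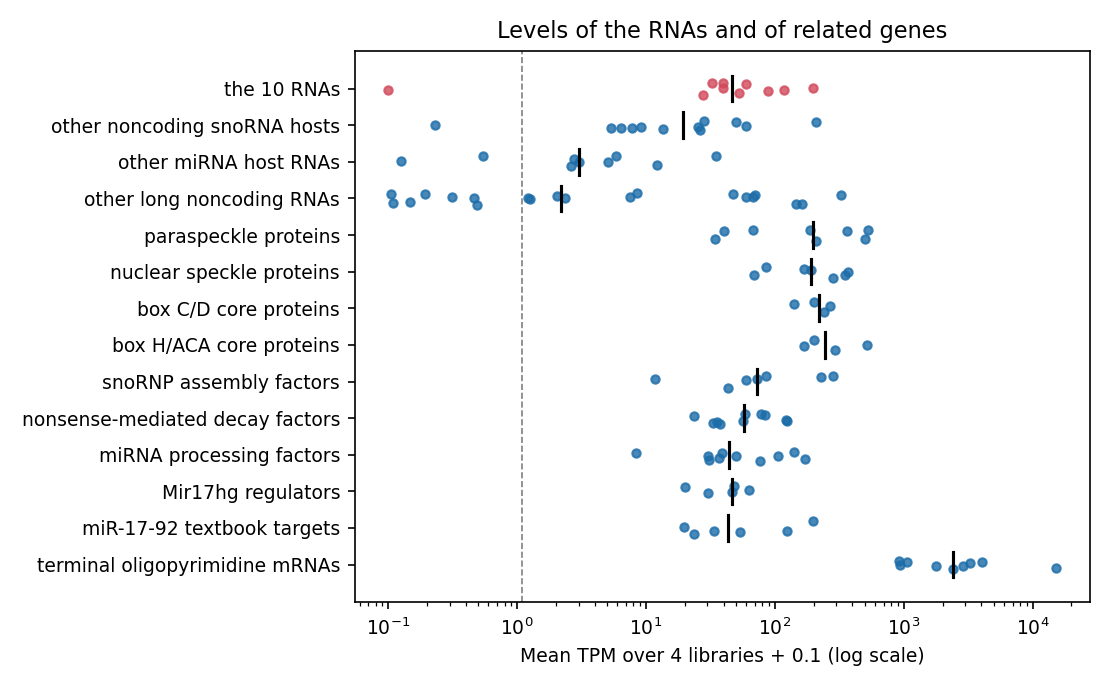
Mean TPM over 4 libraries plus 0.1, on a log scale, for the 10 RNAs (red) and for each list of related genes with a length (blue); each point is a gene, black bars are medians and the dashed line is 1 TPM. The TOP messages lie highest, all at 922 TPM or more, and the long noncoding lists reach from below 1 TPM to 325 TPM.

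The genes of any type whose levels were most like those of the 3 highest RNAs were named by the root mean square difference of log2(TPM + 0.1) over the 4 libraries. For Malat1 these were Leprot, at 197 ± 15.3 TPM and a difference of 0.112, and Grn, which encodes progranulin, at 194 ± 13.4 TPM and 0.147. Snhg8 was nearest to Wbp2, at 119 ± 9.05 TPM and a difference of 0.0379, and to Bloc1s2, at 120 ± 8.09 TPM and 0.0409. Snhg1 was nearest to Traf7, at 89.9 ± 5.03 TPM and a difference of 0.0297, and to Anxa7, at 87.5 ± 7.77 TPM and 0.0361.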

How the data were processed

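Counts per gene were deposited by the authors as raw whole numbers, 1 table per library. Per the submitters' processing notes, STAR and featureCounts were used with the build GRCm39 (mm39). Their versions, options and annotation are not stated there. Strand was not kept, per the labels' protocols. Of 78028 rows, 48824 were matched to GENCODE M21 (GRCm38) for lengths, types and exon overlaps. Of these, 48151 matched by symbol, 51 by gene ID and 622 by another symbol. The matched rows held 98.6% to 98.8% of counts. Where a symbol had several M21 genes, the longest was taken. Coordinates are given only for printed sequences.

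TPM was computed from counts and the union of exons, and ratios used log2(TPM + 0.1). Spread used log2(CPM + 1). Expressed means 1 TPM or more in all 4 libraries, not detected means 3 counts or fewer in each. The edgeR (4.0.16) quasi-likelihood test used TMM and filterByExpr; alternatives were the DESeq2 (1.42.0) Wald test, DESeq2 size factors, no filter, other lengths and pseudocounts, and leaving out each library. The test was tried on simulated data. R 4.3.3, Python 3.11.15, pandas 2.3.3 and matplotlib 3.10.9 were used.

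The 10 RNAs and the lists were chosen with earlier results of these data known. Named are all 10 and their small RNAs, the highest and lowest 2 of each list with those not detected, the largest change per library, and the 2 genes most like each of the 3 highest RNAs. Myc, Alb, Snhg4, Snhg7 and the overlapping genes Morc2a, Gm17300 and Rcc1 were added after their values were seen, and marker lists are given mainly as sums. One gene that this rule names is not reported here.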

Additional observations from a re-analysis of the deposited data

Results flagged for a closer look

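One value stood apart within the group. Tug1 had 119, 166, 125 and 127 CPM in libraries 1 to 4, and the gap between library 2 and the nearest other library was 0.838 of the whole range, above Dixon's 95% critical value for 4 values. Chance flags about 1 in 20 groups, and 12 measures were examined (9 RNAs and 3 shares of counts). Library 2 also had the highest summed parietal endoderm markers, at 8796 TPM, and the lowest summed pluripotency markers, at 3432 TPM; their part in the Tug1 value was not tested.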

How the results depend on the processing

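The RNAs called by edgeR depended on the filter on low counts and on which library was left out. Neat1 was called in library 1 when the filter was dropped. Leaving out library 3, 4, 1 or 2 brought calls in libraries 1, 2, 3 and 4 respectively. The shares of all genes called in those fits are given in the Results. Without the filter, 328, 469, 1 and 6 genes (0.836%, 1.19%, 0.00255% and 0.0153%) were called in libraries 1 to 4, against 0 with it. The DESeq2 test and DESeq2 size factors called 0 of the 9 RNAs in each library. No direction of a largest change per library was reversed in any alternative run. Separated neighbours numbered 4 of 8, and 3 of 8 without library 1, without library 3 or with retained-intron transcripts left out of the lengths. With that choice of length Snhg1 and Gas5 moved ahead of Malat1 and Snhg8, while Neat1 stayed next to last. With its short isoform as length as well, Neat1 lay between Gas5 and Malat1. Leaving out a library swapped only Gas5 with Snhg12 or Neat1 with Mir17hg. RNAs with a spread above the median of all genes numbered 7 of 9, and 6 with TMM-scaled CPM or log2(CPM + 0.1), 5 without library 2, 7 without library 1 or 3 and 8 without library 4. By edgeR's biological coefficient of variation only Gas5, Neat1 and Mir17hg lay above the median. Among 10064 genes of 10 CPM or more, whose median SD was 0.149, 8 of 9 RNAs lay above the median and Gas5, Neat1 and Mir17hg at the 95.2nd, 94.3rd and 92.0th percentile. Snhg3 and the small RNAs stood at 0 counts, and whether depth or the assignment of reads limits them was not tested. No paired analysis was possible because the 4 libraries form 1 group.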
